A study of Homo sapiens with 15 samples.

Results

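NTERA2 cells given siRNA against IGF2BP1 were compared directly with NTERA2 cells given siRNA against FOXM1. NTERA2 cells are an established line of human germ cell tumour origin (embryonal carcinoma) that carries pluripotency genes and can be driven to differentiate. The comparison holds 6 of the 15 RNA-seq libraries of the study, 3 of siIGF2BP1 and 3 of siFOXM1, chosen by the siRNA that the labels name, and all genes were measured. Cells of both groups were grown with 10% serum and treated with siRNA 2 times over 7 days, and the labels give no difference between the groups other than the siRNA. Whether the replicate libraries come from separate cultures is not labelled, and p-values here cover only library-to-library spread, possibly technical.

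IGF2BP1 is an RNA-binding protein of fetal and tumour cells that binds mRNAs in the cytoplasm and shields them from decay. SRF mRNA is one of its reported clients, and SRF is the transcription factor that, with MRTF or ternary complex cofactors, drives actin cytoskeleton, muscle and immediate early genes. FOXM1 is a forkhead transcription factor that joins the MuvB complex and drives genes of G2 phase and mitosis. IQGAP3 is an IQGAP family scaffold that is abundant in proliferating cells.

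IGF2BP1 and SRF mRNA were lower in siIGF2BP1 than in siFOXM1, and no other gene passed the test. Levels are CPM, counts scaled to library size and composition, and are given for libraries 1, 2 and 3 in the order of the columns. The test was edgeR's quasi-likelihood test in 1 fit of all 15 libraries, with Benjamini-Hochberg adjustment over 18760 genes and a threshold of 0.05. Control libraries entered the gene filter, the library scaling and the shared estimate of the spread, but not the means compared. The call rate over all genes was 0.0107% (2 of 18760), with 0 genes higher in siIGF2BP1. At an unadjusted p under 0.05, 215 genes were higher (1.15%) and 693 lower (3.69%), 4.84% in all. In a fit of the 6 libraries alone, 3 of 17635 genes passed (0.017%), which were IGF2BP1, SRF and PLAGL1. Without siFOXM1 library 3, which stood apart, 206 genes passed, 28 higher and 178 lower. Without siIGF2BP1 library 3, which also stood apart, or any other single library of these groups, 2 passed.

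IGF2BP1 stood at 166, 170 and 213 CPM in siIGF2BP1 and at 827, 1080 and 871 CPM in siFOXM1. All siIGF2BP1 libraries lay far below all siFOXM1 libraries. The means were 183 ± 25.98 and 926 ± 135 CPM (SD, n = 3 each), and the level in siIGF2BP1 was 19.8% of that in siFOXM1. The log2 fold change was -2.34 ± 0.17 (SE), with a 95% interval of -2.70 to -1.98 and an edgeR adjusted p of 3.65e-05. The 6 libraries alone gave an adjusted p of 0.0239. With libraries 1 and 2 of each group summed to 1 sample, IGF2BP1 was at -2.26 and did not pass (edgeR adjusted p = 0.163). With control siRNA IGF2BP1 stood at 810, 1039 and 786 CPM, which overlapped siFOXM1.

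SRF stood at 7.63, 7.92 and 5.30 CPM in siIGF2BP1 and at 96.9, 101 and 80.1 CPM in siFOXM1. The groups did not overlap, and SRF was the more strongly separated of the genes that passed. The means were 6.95 ± 1.44 and 92.6 ± 11.1 CPM (SD, n = 3 each), so that siIGF2BP1 held 7.50% of the siFOXM1 level. The log2 fold change was -3.74 ± 0.17 (SE), with a 95% interval of -4.10 to -3.37 and an edgeR adjusted p of 3.06e-07. The 6 libraries alone gave an adjusted p of 0.00937. With control siRNA SRF stood at 82.8, 92.2 and 86.7 CPM, which overlapped siFOXM1. With siRNA against SRF itself it stood at 6.67, 7.04 and 5.95 CPM, which overlapped siIGF2BP1.

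FOXM1, the target of the other siRNA, stood at 279, 291 and 202 CPM in siIGF2BP1 and at 153, 177 and 198 CPM in siFOXM1. On the counts the groups did not overlap, but the third libraries nearly met. On the deposited normalised values they overlap, as given below. The log2 fold change was 0.55 ± 0.27 (SE), with a 95% interval of -0.03 to 1.12 and an edgeR adjusted p of 0.971. Both groups were low beside the control siRNA, where FOXM1 stood at 876, 920 and 773 CPM.

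IQGAP3 stood at 21.4, 21.2 and 13.6 CPM in siIGF2BP1 and at 7.87, 8.75 and 4.42 CPM in siFOXM1. Every siIGF2BP1 library lay above every siFOXM1 library, and both groups lay below the control siRNA, at 105, 127 and 82.5 CPM. The log2 fold change was 1.42 ± 0.29 (SE), with a 95% interval of 0.79 to 2.04. IQGAP3 had an unadjusted p of 3.07e-04 and missed the threshold after adjustment (edgeR adjusted p = 0.593, and 0.475 in the 6 libraries alone). It passed in DESeq2, with a log2 fold change of 1.43 and an adjusted p of 0.00259. It also passed in limma on the deposited normalised values, at 1.62 with an adjusted p of 0.0244.

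**Figure D1:**
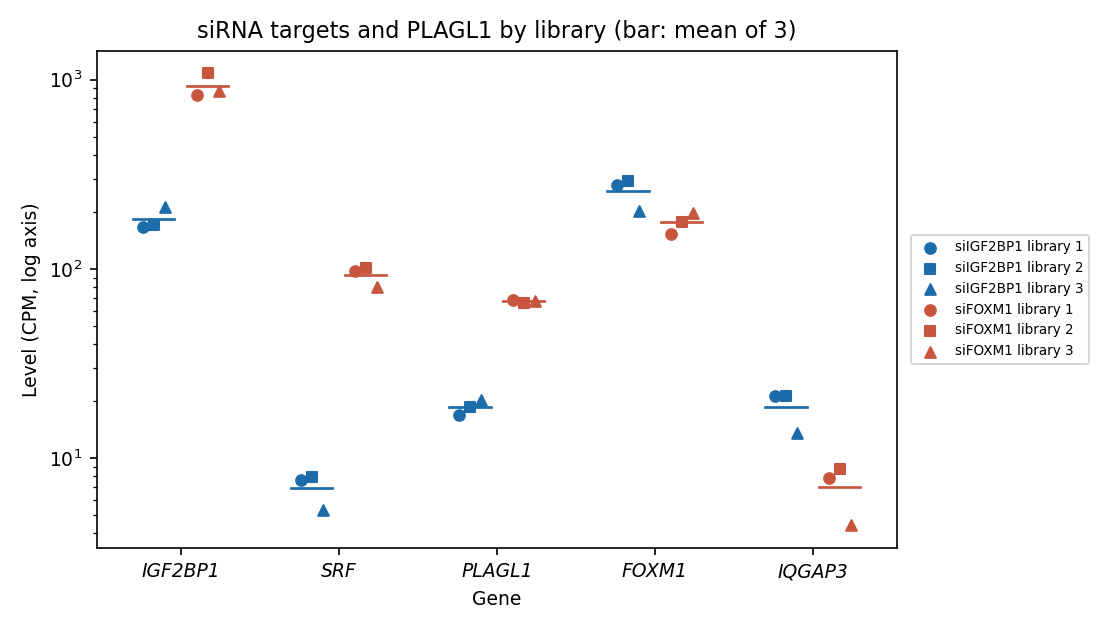
Level in CPM on a log axis of the 4 genes targeted by siRNA in the study and of PLAGL1, in each of the 3 siIGF2BP1 and 3 siFOXM1 libraries, with a bar at the mean of 3. IGF2BP1, SRF and PLAGL1 are lower in every siIGF2BP1 library, IQGAP3 is higher in every one, and the FOXM1 points of library 3 nearly meet, at 202 and 198 CPM.

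These siRNA targets were also the genes on which the deposited tables disagreed. For 20407 genes a normalised value stands beside the count, and it should be the count times 1 factor per library. In the 6 libraries this failed for 5 genes, in 19 entries, and the genes were IGF2BP1, SRF, FOXM1, IQGAP3 and MYC. The normalised value of IQGAP3 in siFOXM1 library 1 was off by -25.4%, and that of IGF2BP1 in siFOXM1 library 3 by 14.3%. That of FOXM1 in siFOXM1 library 3 was off by 13.1%, more than the gap between the third libraries. FOXM1 was not off in siIGF2BP1, so on the normalised values its groups overlap. SRF was off in 1 entry, by 0.0317%. With the normalised values in place of these counts, IGF2BP1 was at a log2 fold change of -2.40 (edgeR adjusted p = 2.19e-05) and SRF at -3.74 (6.33e-07). FOXM1 was then at 0.50 (edgeR adjusted p = 0.971), and IQGAP3 passed, at 1.60 with an adjusted p of 0.0290. Which table holds the measured values was not tested.

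PLAGL1, an imprinted zinc finger gene, was the third gene in the fit of the 6 libraries. It stood at 16.8, 18.6 and 20.4 CPM in siIGF2BP1 and at 68.7, 66.4 and 68.0 CPM in siFOXM1. The groups did not overlap, and the 3 siFOXM1 libraries were nearly level. The log2 fold change was -1.86 ± 0.58 (SE), and the edgeR adjusted p was 0.842 with all 15 libraries and 0.0152 with 6. The SE with 15 libraries also holds the spread of PLAGL1 in the other groups.

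The promoter sequences of SRF, ACTC1 and IQGAP3 are shown because SRF binds the CArG box and MuvB binds the motif TTTGAA, an element of cell cycle promoters. SRF was the member with the smallest p among lists with a call, and ACTC1, a cardiac actin gene, and IQGAP3 were chosen after their values were seen. TAGLN was also looked up, with 0 windows. Each window runs from 250 bases before to 50 bases after the gene start, from RefSeq on GRCh38.p14, and is the first window of the gene that holds a match. Capitals mark the CArG box in SRF (chr6:43171019-43171318, plus strand) and ACTC1 (chr15:34795500-34795799, minus strand), and TTTGAA read on the other strand in IQGAP3 (chr1:156572516-156572815, minus strand).
SRF: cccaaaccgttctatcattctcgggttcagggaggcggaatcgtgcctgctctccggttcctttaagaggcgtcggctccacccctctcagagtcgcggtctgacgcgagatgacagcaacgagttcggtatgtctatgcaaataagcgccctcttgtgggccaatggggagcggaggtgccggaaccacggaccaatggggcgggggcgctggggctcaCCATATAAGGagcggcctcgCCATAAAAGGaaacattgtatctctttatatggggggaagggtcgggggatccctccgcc
ACTC1: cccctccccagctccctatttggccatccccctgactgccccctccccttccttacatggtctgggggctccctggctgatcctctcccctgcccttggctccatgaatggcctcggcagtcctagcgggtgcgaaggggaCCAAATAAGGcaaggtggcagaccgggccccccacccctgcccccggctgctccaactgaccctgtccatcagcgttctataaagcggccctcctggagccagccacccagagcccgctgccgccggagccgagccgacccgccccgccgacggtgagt
IQGAP3: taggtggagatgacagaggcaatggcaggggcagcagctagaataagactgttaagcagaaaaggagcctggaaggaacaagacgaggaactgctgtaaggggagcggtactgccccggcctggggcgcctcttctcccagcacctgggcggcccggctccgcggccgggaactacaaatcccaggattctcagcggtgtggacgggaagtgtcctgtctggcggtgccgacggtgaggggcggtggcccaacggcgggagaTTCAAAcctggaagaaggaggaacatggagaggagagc
SRF holds 2 CArG boxes, which begin 30 and 10 bases before the gene start, and ACTC1 holds 1, which begins 109 bases before it. The match of IQGAP3 lies within the 50 bases after its gene start. Searched on both strands, a CArG box was in 454 of 35116 promoter windows (1.29%) and TTTGAA in 5324 (15.2%). A match describes the letters of the window and is neither a shown binding site nor a cause of a level.

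The libraries of a group were not alike. Libraries 1 and 2 of a group were close to each other and library 3 stood apart from them, in both groups. Between libraries 1 and 2, 528 genes differed by 2-fold or more in siIGF2BP1 and 397 in siFOXM1. Library 3 differed from libraries 1 and 2 by that much at 3249 and 3294 genes in siIGF2BP1, and at 2865 and 2962 in siFOXM1. Library 1 of siIGF2BP1 differed from library 1 of siFOXM1 at 2977 genes, so the spread within a group was as wide as the difference between the groups. The third libraries of the groups differed from each other at 1324 genes. A chi-square per gene of 4.48 and 2.28 for libraries 1 and 2 of siIGF2BP1 and siFOXM1 showed them to be distinct counts. The library totals were 38707472 to 42920197 counts, so depth was much the same in all 6. The median SE of a log2 fold change was 0.32, with quartiles of 0.21 and 0.55.

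In principal components of the 6 libraries, siIGF2BP1 libraries 1 and 2 lay at one end of the first component (scores -68.3 and -65.7) and siFOXM1 libraries 1 and 2 at the other (53.9 and 53.5). The third library of siIGF2BP1 scored 29.6, on the side of siFOXM1, and the third of siFOXM1 scored -3.03. On this component the third libraries therefore stood in the reverse order of their labels. IGF2BP1 itself, at 213 and 871 CPM in the third libraries, went with the labels. The third libraries shared low scores on the second component, -51.5 and -64.9.

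**Figure D2:**
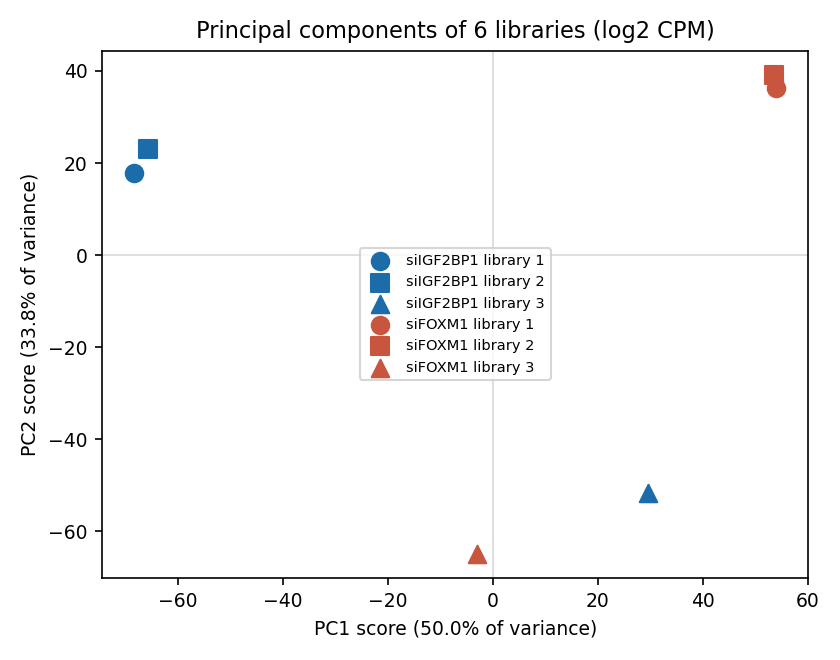
Scores of the 6 libraries on the first principal component (50.01% of variance) and the second (33.8%), from log2 CPM of all tested genes. Circles, squares and triangles are libraries 1, 2 and 3, and the triangles lie below both pairs, with siIGF2BP1 at 29.6 and siFOXM1 at -3.03 on the first component.

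Gene by gene, the difference between siIGF2BP1 and siFOXM1 in libraries 1 and 2 was set beside that in library 3. Across 18760 genes, which are not independent replicates, the Pearson correlation of these differences was -0.32, Spearman's was -0.26, and 41.7% of genes had the same sign. Among 12469 genes that averaged 5 CPM or more in a group, 917 differed by at least 1 on the log2 scale in libraries 1 and 2, 204 higher and 713 lower in siIGF2BP1. In library 3, 687 of the 917 (74.9%) had the opposite sign, and 20 (2.18%) differed by at least 1 in the same direction. Most large differences of libraries 1 and 2 were therefore not seen between the third libraries. These are a single library of each group, matched only by column place.

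The 20 genes that differed by at least 1 in the same direction in both were singled out after their values were seen. Lower in siIGF2BP1 were IGF2BP1, SRF, PLAGL1, CCL5, ZBTB16, PNMA3, KCNJ12, ARNT2, DHRS2, ANKRD1, RAB31, BARX1, BDH1, NUDT11, GPC3, LOC728485, PGF and TRIM59. Higher were IQGAP3 and FAM111B. The libraries of ZBTB16, KCNJ12, DHRS2, ANKRD1, BDH1, GPC3 and PGF overlapped between the groups. CCL5 stood at 0.0755, 0.176 and 0.403 CPM in siIGF2BP1 and at 0.636, 0.836 and 16.4 CPM in siFOXM1. RAB31, a small GTPase of vesicle transport, stood at 11.4, 11.5 and 18.3 CPM in siIGF2BP1 and at 42.5, 44.1 and 41.5 CPM in siFOXM1. BARX1, a homeobox gene, stood at 9.41, 10.0 and 12.8 against 29.8, 28.9 and 31.4 CPM. ARNT2, a partner of bHLH-PAS transcription factors, stood at 5.18, 5.38 and 8.61 against 17.7, 17.8 and 30.8 CPM. None of these 3 overlapped between groups, and their edgeR adjusted p was 0.971 each with all 15 libraries. In the 6 libraries alone the edgeR adjusted p was 0.255 for RAB31, 0.200 for BARX1 and 0.475 for ARNT2. FAM111B, a protease gene of dividing cells, stood at 21.2, 19.7 and 12.4 CPM in siIGF2BP1 and at 7.23, 7.47 and 5.74 CPM in siFOXM1. It too did not overlap, and its log2 fold change was 1.38 ± 0.88 (SE). Its edgeR adjusted p was 0.971 with all 15 libraries and 0.475 with 6. That SE, from 15 libraries, also holds the spread of FAM111B in the other groups.

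**Figure D3:**
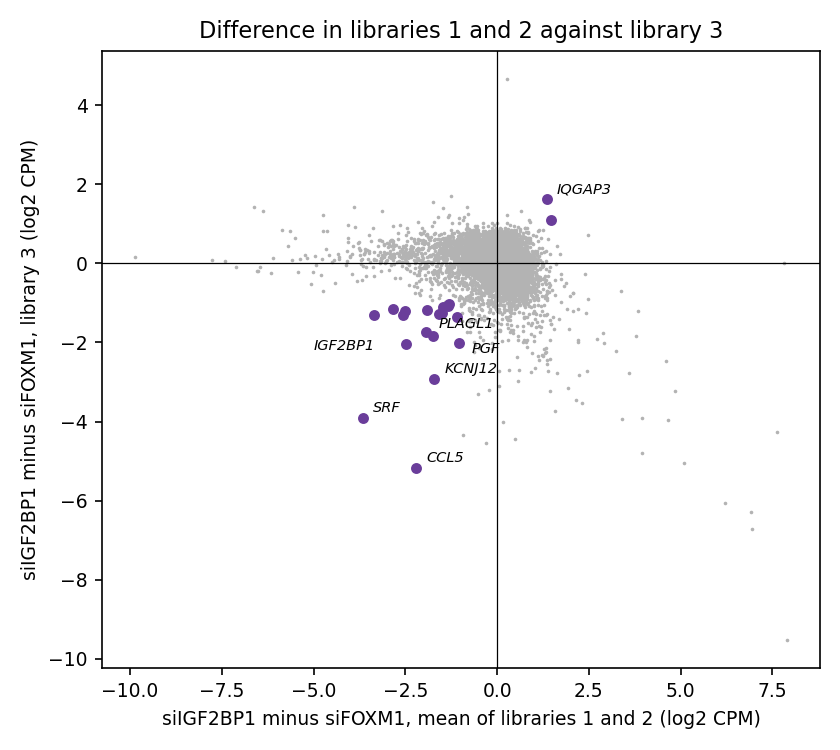
Difference of siIGF2BP1 minus siFOXM1 in log2 CPM, as the mean of libraries 1 and 2 on the horizontal axis and in library 3 on the vertical axis, 1 point for each of 12469 genes with at least 5 CPM in a group. The 20 purple genes differ by at least 1 in the same direction on both axes, and the grey cloud leans the other way.

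A wider view came from genes whose 3 libraries did not overlap between the groups. Such genes numbered 1456 higher (7.76%) and 1305 lower (6.96%), 14.7% of those tested. With at least 5 CPM and a log2 fold change of at least 1, 9 were higher and 115 lower in siIGF2BP1. Of the 115, 69 differed by less than 0.5 in library 3. Among 12916 genes that reached 5 CPM in a library, 9 had every siIGF2BP1 library at least 2-fold below every siFOXM1 library and 0 had every one above. These 9 were IGF2BP1, SRF, PLAGL1, ARNT2, BARX1, RAB31, PNMA3, OAS2 and XIRP1. By the same measure siFOXM1 libraries 1 and 2 stood above the other 4 libraries at 295 genes, and siIGF2BP1 libraries 1 and 2 stood below the others at 282.

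Cofactors, paralogs and partners of the targets showed 0 calls among 14 genes. IGF2BP2, a paralog of IGF2BP1, stood at 85.3, 81.9 and 104 CPM in siIGF2BP1 and at 144, 139 and 103 CPM in siFOXM1. The third libraries were level, and the log2 fold change was -0.51. IGF2BP3, the other paralog, stood at 57.6, 56.0 and 91.9 against 85.3, 79.1 and 81.9 CPM, and the groups overlapped. MRTFA, the actin-regulated cofactor of SRF, stood at 61.5, 63.5 and 57.8 against 56.7, 59.1 and 54.2 CPM, with a log2 fold change of 0.10. The low SRF level of siIGF2BP1 was thus found beside MRTFA levels that overlapped. ELK1, a ternary complex cofactor of SRF, stood at 59.1, 62.8 and 53.6 against 84.99, 88.8 and 64.8 CPM. Its libraries did not overlap, and its log2 fold change of -0.44 did not pass (edgeR adjusted p = 0.966). HMGA2, a chromatin protein whose mRNA is a reported IGF2BP1 client, stood at 49.1, 49.5 and 77.4 against 211, 217 and 92.1 CPM. It was lower in every siIGF2BP1 library, by little in the third, and its adjusted p was 0.971.

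Reported client mRNAs of IGF2BP1, a list of 38 tested genes drawn from many cell types, held SRF as its 1 call. At an unadjusted p under 0.05, 1 was higher and 5 lower, beside 1.15% and 3.69% of all genes. The list median was -0.04 beside 0.01 over all genes. Libraries did not overlap at 3 genes that were higher (7.89%, beside 7.76% of all genes) and 7 that were lower (18.4%, beside 6.96%). The share of higher genes was near that of all genes. H19, an imprinted noncoding RNA, stood at 2.42, 7.77 and 123 CPM in siIGF2BP1 and at 4140, 4055 and 111 CPM in siFOXM1. Libraries 1 and 2 of siFOXM1 alone held H19 at a high level, and the third libraries were close. MYC stood at 64.2, 66.4 and 40.5 against 37.8, 38.0 and 28.5 CPM, with no overlap, a log2 fold change of 0.71 and an edgeR adjusted p of 0.970. It is among the genes on which the tables disagreed.

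Known target genes of SRF were read as 2 lists. Of 42 cytoskeletal targets, SRF was the only call, and the median log2 fold change was -0.47. At an unadjusted p under 0.05, 7 were lower and 0 higher, beside 3.69% and 1.15% of all genes. In libraries 1 and 2, 38 of 42 were lower in siIGF2BP1, with a median of -0.64. In library 3, 14 of 42 were lower, with a median of 0.09. ACTC1, whose promoter is shown above, stood at 0.629, 0.453 and 1.12 CPM in siIGF2BP1 and at 40.2, 39.8 and 1.02 CPM in siFOXM1. Only siFOXM1 libraries 1 and 2 held it at a high level. TAGLN, an actin-binding protein of smooth muscle, stood at 6.27, 8.02 and 29.4 against 222, 214 and 30.4 CPM. TAGLN2, its broadly used relative, stood at 336, 384 and 295 against 653, 653 and 439 CPM. TAGLN2 was lower in each siIGF2BP1 library, with a log2 fold change of -0.78 and an edgeR adjusted p of 0.857.

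Immediate early targets of SRF, 27 genes, also held SRF as their 1 call. At an unadjusted p under 0.05, 1 of them was higher and 3 lower, beside 1.15% and 3.69% of all genes. Their median was -0.09, beside -0.03 in libraries 1 and 2 and -0.02 in library 3. DUSP5, a nuclear phosphatase of ERK, stood at 3.02, 2.46 and 4.09 against 9.67, 9.90 and 7.31 CPM. ATF3, a stress transcription factor, stood at 43.4, 45.3 and 45.3 against 57.9, 55.1 and 59.5 CPM. Both lay lower in every siIGF2BP1 library, and neither passed. The list as a whole was split. Of its 27 genes, 8 were lower and 7 higher both in libraries 1 and 2 and in library 3. Muscle genes, 28 tested, held 0 calls and had a median of -0.49. At an unadjusted p under 0.05, 1 was higher and 8 lower, beside the same shares of all genes. MYL4, an atrial myosin light chain chosen after its values were seen, stood at 0.126, 0.352 and 0.0895 against 23.97, 24.9 and 0.109 CPM.

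Genes that FOXM1 is known to drive came next. Of 51 genes of G2 and mitosis, 0 passed, and the median was 0.21. At an unadjusted p under 0.05, 3 of the 51 were higher and 0 lower, beside 1.15% and 3.69% of all genes. Libraries did not overlap at 6 of them, each higher in siIGF2BP1, which is 11.8% beside 7.76% of all genes. The median was 0.32 in libraries 1 and 2 and -0.07 in library 3. KIF14, a mitotic kinesin, stood at 58.3, 48.2 and 44.7 CPM in siIGF2BP1 and at 37.5, 33.5 and 35.3 CPM in siFOXM1. NDC80, a kinetochore protein, stood at 51.7, 47.0 and 42.1 against 36.3, 32.8 and 33.1 CPM. Both were higher in every siIGF2BP1 library, at log2 fold changes of 0.51 and 0.46 with an edgeR adjusted p of 0.969 and 0.971. PLK1, a mitotic kinase and FOXM1 target, stood at 255, 278 and 148 against 257, 252 and 160 CPM. Its log2 fold change was 0.03, and its groups overlapped. Of 50 genes of G1/S and replication, 0 passed, and the median was 0.39 in libraries 1 and 2 and -0.40 in library 3. Among 11 MuvB and MYB partners of FOXM1, 0 passed. MYBL2, the MYB protein that joins MuvB, stood at 279, 304 and 150.5 against 328, 332 and 210 CPM.

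Pluripotency genes, the markers of the labelled cell type, were present in both groups. The 35 tested genes summed to 911, 972 and 753 CPM in siIGF2BP1 and to 1886, 1931 and 597 CPM in siFOXM1, against 4022, 3505 and 7114 CPM with control siRNA. Libraries 1 and 2 of siFOXM1 held more of this RNA than siIGF2BP1, and the third siFOXM1 library held less. In bulk RNA, fewer cells of a type and less RNA per cell cannot be told apart. POU5F1, the core pluripotency factor, stood at 45.6, 50.4 and 35.8 against 78.3, 84.4 and 19.6 CPM. NANOG, its partner, stood at 3.35, 3.62 and 2.15 against 7.26, 6.30 and 1.70 CPM. LIN28A, an RNA-binding protein that blocks let-7, stood at 144, 157 and 57.1 against 492, 506 and 19.5 CPM. All 3 were lower in siIGF2BP1 in libraries 1 and 2 and higher in library 3. The list held 0 calls and a median of -0.50, which was -0.75 in libraries 1 and 2 and 0.37 in library 3.

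Developmental signalling genes also differed between libraries 1 and 2 and library 3. Of 39 HOX genes, 0 passed, and the median was 0.25. At an unadjusted p under 0.05, 0 were higher and 6 lower, beside 1.15% and 3.69% of all genes. The HOX median was 0.48 in libraries 1 and 2, where 15 of 39 were lower, and -0.39 in library 3, where 29 of 39 were lower. Without siFOXM1 library 1 or 2 that median was -0.06. HOXB1, a hindbrain HOX gene that responds to retinoic acid, stood at 0.654, 0.779 and 2.19 CPM in siIGF2BP1 and at 63.6, 63.2 and 0.849 CPM in siFOXM1. HOXA13, a gene of the far end of its cluster, stood at 128, 125 and 129 against 84.1, 85.3 and 95.3 CPM. HOXB1 was lower in siIGF2BP1 in libraries 1 and 2. HOXA13 was higher in all 3 without passing (edgeR adjusted p = 0.972, and 0.475 in the 6 libraries alone). Of 24 ERK output genes, 0 passed and 4 were lower at an unadjusted p under 0.05, beside 3.69% of all genes. DUSP6, a phosphatase that ERK induces, stood at 15.1, 15.6 and 14.7 against 135, 133 and 13.5 CPM. LEFTY2, a Nodal antagonist, stood at 0.302, 0.327 and 1.28 against 61.7, 62.3 and 1.22 CPM. CRABP2, a retinoic acid carrier, stood at 535, 621 and 674 against 2854, 2850 and 525 CPM. For DUSP6, LEFTY2 and CRABP2 it was siFOXM1 libraries 1 and 2 that stood apart from the other 4. The Nodal, TGF-beta and BMP list (42 genes) and the retinoic acid list (30 genes) held 0 calls each, with medians of -0.17 and -0.05.

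**Figure D4:**
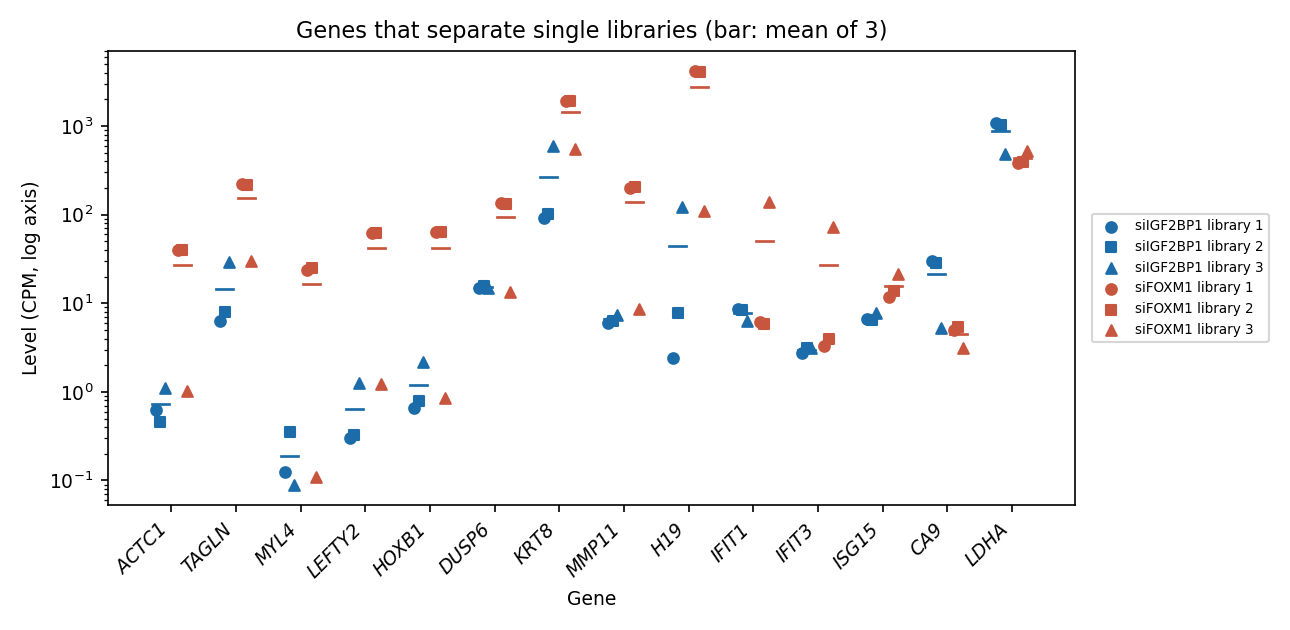
Level in CPM on a log axis of 14 genes in each siIGF2BP1 and siFOXM1 library, with a bar at the mean of 3, chosen after their values were seen. From ACTC1 to H19 the circles and squares of siFOXM1 stand above its triangle, IFIT1 and IFIT3 are high in the siFOXM1 triangle alone, and CA9 and LDHA are highest in the circles and squares of siIGF2BP1.

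Among 34 interferon genes 0 passed. Of these, 11 were lower and 0 higher at an unadjusted p under 0.05, 9 did not overlap, each lower, and the median was -0.70. Those 9 are 26.5% of the list, beside 6.96% of all genes lower without overlap and 3.69% lower at an unadjusted p under 0.05. IFIT1, an antiviral RNA sensor, stood at 8.51, 8.35 and 6.33 CPM in siIGF2BP1 and at 6.20, 5.88 and 138 CPM in siFOXM1. IFIT3, its partner, stood at 2.74, 3.09 and 3.11 against 3.28, 3.999 and 72.9 CPM. For both, the third library of siFOXM1 alone was high. ISG15, a ubiquitin-like protein, stood at 6.62, 6.54 and 7.83 against 11.9, 13.8 and 21.5 CPM. IFI6 stood at 12.6, 14.6 and 16.0 against 26.9, 25.9 and 65.0 CPM. These were lower in every siIGF2BP1 library, at an edgeR adjusted p of 0.778 for ISG15 and 0.790 for IFI6. Without the third library of siFOXM1 the list median was -0.29.

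Hypoxia and glycolysis genes, 32 tested, held 0 calls, 8 higher and 4 lower at an unadjusted p under 0.05, and 8 that were higher without overlap. Those 8 are 25% of the list, beside 7.76% of all genes, of which 1.15% were higher and 3.69% lower at an unadjusted p under 0.05. The median was 0.34, with 0.61 in libraries 1 and 2 and 0.19 in library 3, so this list kept its sign in both. LDHA, lactate dehydrogenase, stood at 1097, 1028 and 482 against 386, 392 and 517 CPM. CA9, a carbonic anhydrase induced by hypoxia, stood at 29.8, 28.4 and 5.23 against 4.98, 5.46 and 3.16 CPM. P4HA1, a collagen prolyl hydroxylase, stood at 178, 157 and 134 against 103, 98.3 and 107 CPM. LDHA was higher in libraries 1 and 2 only, while P4HA1 was higher in all 3, and its log2 fold change of 0.61 had an edgeR adjusted p of 0.857. ENO1, a glycolytic enzyme, stood at 3014, 3044 and 1926 against 1822, 1851 and 1646 CPM, again with no overlap.

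Epithelial, matrix and other cell type genes were also without calls. KRT8, a simple epithelial keratin whose pseudogene copies can take its reads, stood at 91.3, 102 and 602 against 1896, 1906 and 558 CPM. Of 14 fibroblast genes, 2 were lower at an unadjusted p under 0.05, beside 3.69% of all genes. The 14 summed to 5715, 5606 and 10768 CPM in siIGF2BP1 and to 9292, 9128 and 7016 CPM in siFOXM1. COL1A1 and COL3A1 made up most of that sum in each library. Of 20 blood and endothelial genes, 15 were tested and summed to 135 to 204 CPM in siIGF2BP1 and 141 to 199 CPM in siFOXM1. HBB was at 0 in all 6 libraries, and PTPRC and PECAM1 were too low to be tested. The part of these genes in the differences was not tested. Ribosomal protein genes, 52 tested and with many pseudogene copies, had a median of 0.05, and 22 histone genes had a median of 0.40.

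**Figure D5:**
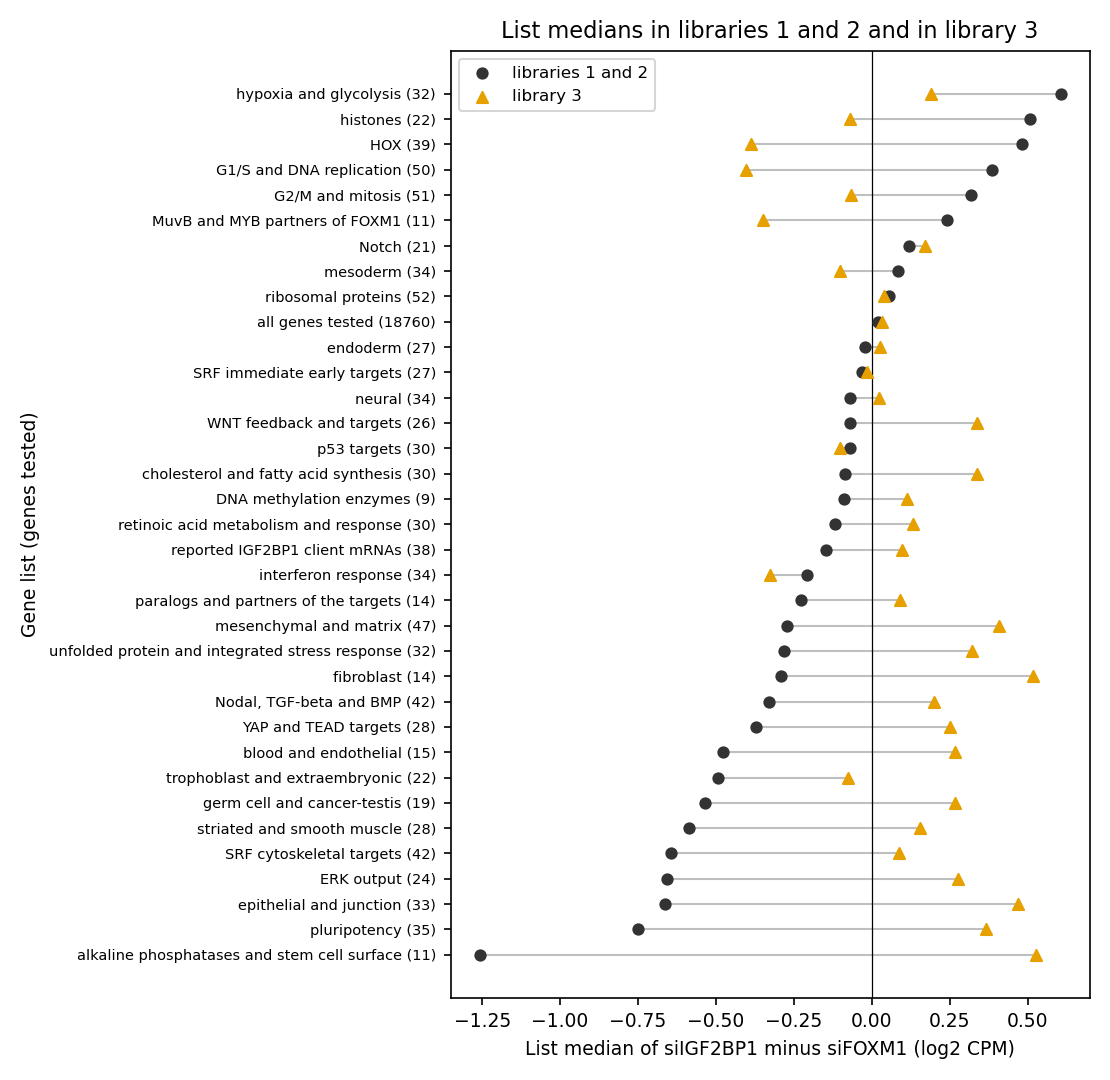
Median difference of siIGF2BP1 minus siFOXM1 in log2 CPM for each gene list, as the mean of libraries 1 and 2 (circles) and in library 3 (triangles), with the number of genes tested in parentheses. Pluripotency runs from -0.75 in libraries 1 and 2 to 0.37 in library 3, hypoxia and glycolysis is positive in both, and interferon response is negative in both.

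Without the third libraries of siIGF2BP1 and siFOXM1, 97 genes passed in the same edgeR test, 15 higher and 82 lower. IGF2BP1 was then at -2.52 (adjusted p = 3.00e-04) and SRF at -3.69 (5.77e-07). Of the 97 genes, 17 had the same direction in library 3, and 2 of these, IGF2BP1 and SRF, differed there by at least 1. The others differed there by less than 1 or had the opposite sign.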

How the data were processed

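The labels' protocols give column purification of RNA and paired-end sequencing of 100 bp. The submitters' processing notes name STAR, SAMtools and featureCounts, and the build GRCh37. Versions, annotation and strand setting are not given in the sources used here, so overlapping and antisense genes cannot be told apart. The deposited raw counts cover 28207 gene symbols, and the deposited normalised table holds a signal that is the count scaled per library by the authors. The column names give only the group, so libraries were numbered by column only to name them.

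A filterByExpr step over the 5 groups kept 18760 genes, with TMM scaling. Differences were tested by quasi-likelihood F in edgeR 4.0.16 under R 4.3.3, in 1 fit of 15 libraries with 10 residual degrees of freedom, with p-values adjusted by Benjamini-Hochberg. The test was also tried on simulated data, in which the libraries of a group were alike. The third libraries stood apart here, so that trial cannot vouch for the test on these data. Log2 CPM used a prior count of 2. The 6 libraries of both groups had 38707472 to 42920197 counts, and precision is given by the SE between libraries. A fit of the 6 libraries alone, DESeq2 1.42.0, limma 3.58.1, other scalings, other filters and left-out libraries were tried as alternatives.

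The comparison and 35 gene lists (1049 entries, 1007 tested, 36 matched through RefSeq synonyms) were chosen with earlier results of these data known. Named genes were the siRNA targets with their paralogs and partners, genes past the threshold with at least 5 CPM and no overlap (up to 15 each way), and of each list up to 4 members past the threshold or, with none, up to 2 of the highest level. Any other gene belongs to a list or is marked as chosen after its values were seen. Examples from lists, with or without a call, were in part picked for their values. GRCh37 was not used here, so gene coordinates are not given except for promoter windows on GRCh38.p14.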

Additional observations from a re-analysis of the deposited data

How the results depend on the processing

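The count of 2 genes became 5 with the 12 knockdown libraries, 59 with DESeq2, 97 without the third libraries of both groups, 9956 without the third library of every group (4752 higher and 5204 lower), and 1 with libraries 1 and 2 summed. The 9956 calls rest on libraries 1 and 2, which differ least from each other. With one library left out in turn, the count ran from 2 to 206, and 206 came without siFOXM1 library 3 (28 higher and 178 lower). IGF2BP1 ran from -2.46 to -2.21 and SRF from -3.84 to -3.57 in those fits. FOXM1 ran from 0.45 to 0.70 and IQGAP3 from 1.16 to 1.61 there. IGF2BP1 was at -2.26 (edgeR adjusted p = 0.163) with libraries 1 and 2 summed, which leaves fewer samples. FOXM1 passed at 0.76 without the third library of every group. IQGAP3 passed at 1.43 in DESeq2, at 1.62 in limma on normalised values with either pseudocount, at 1.33 without the third library of every group and at 1.60 with the normalised values of the disagreeing genes. The columns carry no replicate number, and the deviations of libraries in the same place correlated at -0.01, 0.11 and 0.05. These correlations cannot decide whether column order reflects pairing. Between groups, the third libraries differed least (1324 genes by 2-fold or more), and they shared low scores on the second component. With column order as a replicate block, IQGAP3 passed in 15 libraries at 1.44 and 3 genes passed. With the block in 6 libraries 0 passed in edgeR (1902 at an unadjusted p under 0.05), with IGF2BP1 at -2.36 and SRF at -3.77. Voom, other scalings and other filters left the count at 2. No result reversed its direction with a call in either fit. The median of the HOX list was -0.06 without siFOXM1 library 1 or 2. The effect of depth was not tested. The cause of these shifts was not tested.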
